A study of Mus musculus with 5 samples.

Results

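The genes described here are 9 secreted inflammatory mediators, the cytokine Il6 and the chemokines Ccl2, Ccl7, Ccl11, Cxcl1, Cxcl2, Cxcl5, Cxcl12 and Cxcl14, followed through the cell types of the mouse temporomandibular joint (TMJ) disc, the fibrocartilage pad between the jaw condyle and the skull. They were matched by gene symbol, and all 9 were found among the 27998 genes of the files. They were chosen by measured values, namely their counts by cell type and above all the low Il6 of the injured stroma, so the levels below are a description of these libraries and carry no test. The study took TMJ discs of wild-type (WT) C57BL/6 mice at 3 days (3 d), 3 weeks (3 w), 16 weeks (16 w) and 78 weeks (78 w) of age, all untreated, and from a disc injury model. In that model the anterior band of the disc was pinched with a 31 Gauge needle at 5 weeks of age, and tissue was collected 2 weeks later, at 7 weeks. The labels give the injured mice as WT and the disc as pinched, while the study's methods for its injury model describe punctures in Myh11-CreER+; Tm fl/- mice, and which of these holds for this library was not settled. The age of 78 w is that of the labels and the study, although the library's deposited files carry another age, in months, in their names. Each condition is 1 single-cell library, made from discs digested in pronase for 1 h and collagenase for 2 h, so neither the spread between animals nor a difference between library preparations can be measured. Per the study's methods the 3 d mice were of both sexes and the older normal mice were male, and the sex of the injured mice is not given in the sources used here. The study's methods also give tamoxifen to the Myh11-CreER+ mice of its injury model, and whether the mice of this library received it was not settled. Injury, age of 7 weeks, surgery, sex, library and any difference in genotype, strain or tamoxifen cannot be told apart in the injured sample.

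Interleukin-6 (IL-6) is a cytokine that binds its receptor Il6ra and the shared signalling chain Il6st, and activates STAT3, which in turn induces the feedback inhibitor Socs3. Chemokines are small secreted proteins that guide leukocytes: the CC chemokines Ccl2 and Ccl7 attract monocytes through Ccr2, Ccl11 (eotaxin) attracts eosinophils through Ccr3, and Cxcl1, Cxcl2 and Cxcl5 attract neutrophils through Cxcr2. Cxcl12 and Cxcl14 are usually called homeostatic, Cxcl12 holding progenitors and leukocytes through Cxcr4 and being scavenged by Ackr3. Il6, Ccl2, Cxcl1 and Cxcl2 are classic targets of the transcription factor NF-kappaB, and their transcripts can also be induced within hours by tissue digestion.

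Between 8467 and 14959 cells per library were kept, at a median of 3299 unique molecular identifiers (UMIs, counted transcripts) per cell in the injured library and 7721 to 12496 in the normal ones. Clustering, done without the 9 genes and the pathway genes listed further on, gave 4 classes that carried their defining markers in every library: stromal cells, mural cells of the vessel wall, endothelial cells and macrophages. The stromal class corresponds to the study's fibroblasts only in part. Synovial lining-like cells, with Col22a1 and Tspan15, which the study gives for its fibroblast cluster FB4, were kept apart. Shallow cells left unnamed made up 10.2% of the cells at 3 d and 0.544 to 2.62% in the other libraries. Stromal cells made up 74.5 to 88.0% of the cells, mural cells 1.38 to 2.93%, endothelial cells 4.46 to 8.0% and macrophages 1.28 to 6.46%. A level in CPM, the usual unit of scaled counts, is a gene's UMIs scaled to all UMIs of the class in that library, with an exact Poisson interval that covers counting error only. In macrophages the summed level of 5 neutrophil markers ranged from 4.72 to 901 CPM, highest at 3 d, against 11626 to 29334 CPM for 11 macrophage markers, so neutrophil RNA was present in this class. Pairs of libraries shared 19 to 39 cell barcodes.

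RNA of one class also appeared in the others. The stromal matrix genes Dcn, Lum and Fmod stood in mural, endothelial and macrophage cells at a median of 12.2 to 34.7% of their stromal level, whereas mural, endothelial and macrophage markers stood in stromal cells at 0.0288 to 0.736% of their own class's level. Multiplying each such ratio by a chemokine's level in the source class gave a carried-over level, which takes in free RNA, doublets and any true expression of the markers. It is set beside the levels below, and a level whose Poisson interval reached down to it was read as background. It uses the median ratio over the markers of a source class, so the spread between markers is not in it.

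In the mouse genome (GRCm38) the genes lie in a few groups. Il6 is at chr5:30013114-30019981 on the plus strand. The CC genes Ccl2 (chr11:82035571-82037453), Ccl7 (chr11:82045712-82047525) and Ccl11 (chr11:82057823-82062955) are neighbours on the plus strand of chromosome 11, and Cxcl5 (chr5:90759360-90761624), Cxcl1 (chr5:90891241-90893115) and Cxcl2 (chr5:90903871-90905938) are neighbours on the plus strand of chromosome 5. Cxcl12 is at chr6:117168535-117181367 on the plus strand and Cxcl14 at chr13:56288643-56296551 on the minus strand. Promoter windows of RefSeq (GRCm38.p6) were at hand for 5 of the 9 genes, and the 250 bases before the start were searched on both strands for the consensus of NF-kappaB (the kappaB site). It occurred in Il6, Cxcl1 and Cxcl2 and had no match in Cxcl12 or Cxcl14, and 3.90% of all 32851 windows held one. The 3 windows with a match are shown, since they are the promoters in which the motif was found. They are Il6 at chr5:30012864-30013113, Cxcl1 at chr5:90890995-90891244 and Cxcl2 at chr5:90903649-90903898, all on the plus strand, with the kappaB match in capitals.
Il6: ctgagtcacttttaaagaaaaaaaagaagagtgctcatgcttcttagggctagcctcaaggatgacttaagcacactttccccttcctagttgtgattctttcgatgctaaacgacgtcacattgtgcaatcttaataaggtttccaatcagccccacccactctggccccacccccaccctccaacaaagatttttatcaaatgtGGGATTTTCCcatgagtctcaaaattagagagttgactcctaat
Cxcl1: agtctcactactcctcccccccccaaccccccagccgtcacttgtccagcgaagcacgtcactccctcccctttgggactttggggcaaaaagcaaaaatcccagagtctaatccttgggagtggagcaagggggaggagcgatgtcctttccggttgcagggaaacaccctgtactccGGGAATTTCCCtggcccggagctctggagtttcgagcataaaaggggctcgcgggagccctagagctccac
Cxcl2: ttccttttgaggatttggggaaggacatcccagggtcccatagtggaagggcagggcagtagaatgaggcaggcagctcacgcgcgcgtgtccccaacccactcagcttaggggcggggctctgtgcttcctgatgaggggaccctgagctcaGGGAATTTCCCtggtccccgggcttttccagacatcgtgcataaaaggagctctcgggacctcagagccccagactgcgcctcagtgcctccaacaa

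The match in Il6 ended 34 bases before the start. In Cxcl1 and Cxcl2 the capitals are 1 run of 11 bases, in which matches on the 2 strands overlap, ending 60 and 86 bases before the start. These distances are from the start of the RefSeq windows. For Cxcl1 and Cxcl2 it lies downstream of the gene start printed above, so their windows reach into the gene as printed. Among other motifs, TGANTCA (AP-1) and TTGCNNAA (C/EBP) occurred in the Il6 window and in no other of the 5, against 6.75% and 9.56% of all windows. TTCNNNGAA (STAT) occurred in Cxcl14 only, against 7.02%, and TGACGTCA (CRE) in none, against 1.55%. A match in letters does not show that a factor binds there.

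Il6 was highest in mural cells in every library. Mural cells held 70.2 CPM at 3 d, 1375 at 3 w, 983 at 16 w, 1251 at 78 w and 657 after injury. Every library after 3 d was far above the newborn one, and the injured library lay between the 3 d and the other normal libraries. Endothelial cells stood lower in each library, at 41.7 CPM at 3 d, 172 at 3 w, 26.5 at 16 w, 79.1 at 78 w and 74.8 after injury. Stromal cells held 12.5 CPM at 3 d, 49.2 at 3 w, 15.7 at 16 w, 31.6 at 78 w and 1.83 after injury. Mural over stromal ratios were 5.63 at 3 d, 28.0 at 3 w, 62.4 at 16 w, 39.6 at 78 w and 358 after injury. The last divides by the stromal level that chose the set, of which 76.8% was matched by the carried-over level. No wider gap after injury is read from it. In macrophages Il6 was 1.58 to 47.0 CPM, from 2 UMIs at 16 w to 138 at 78 w, and exceeded the carried-over level in 2 of 5 libraries.

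**Figure D1:**
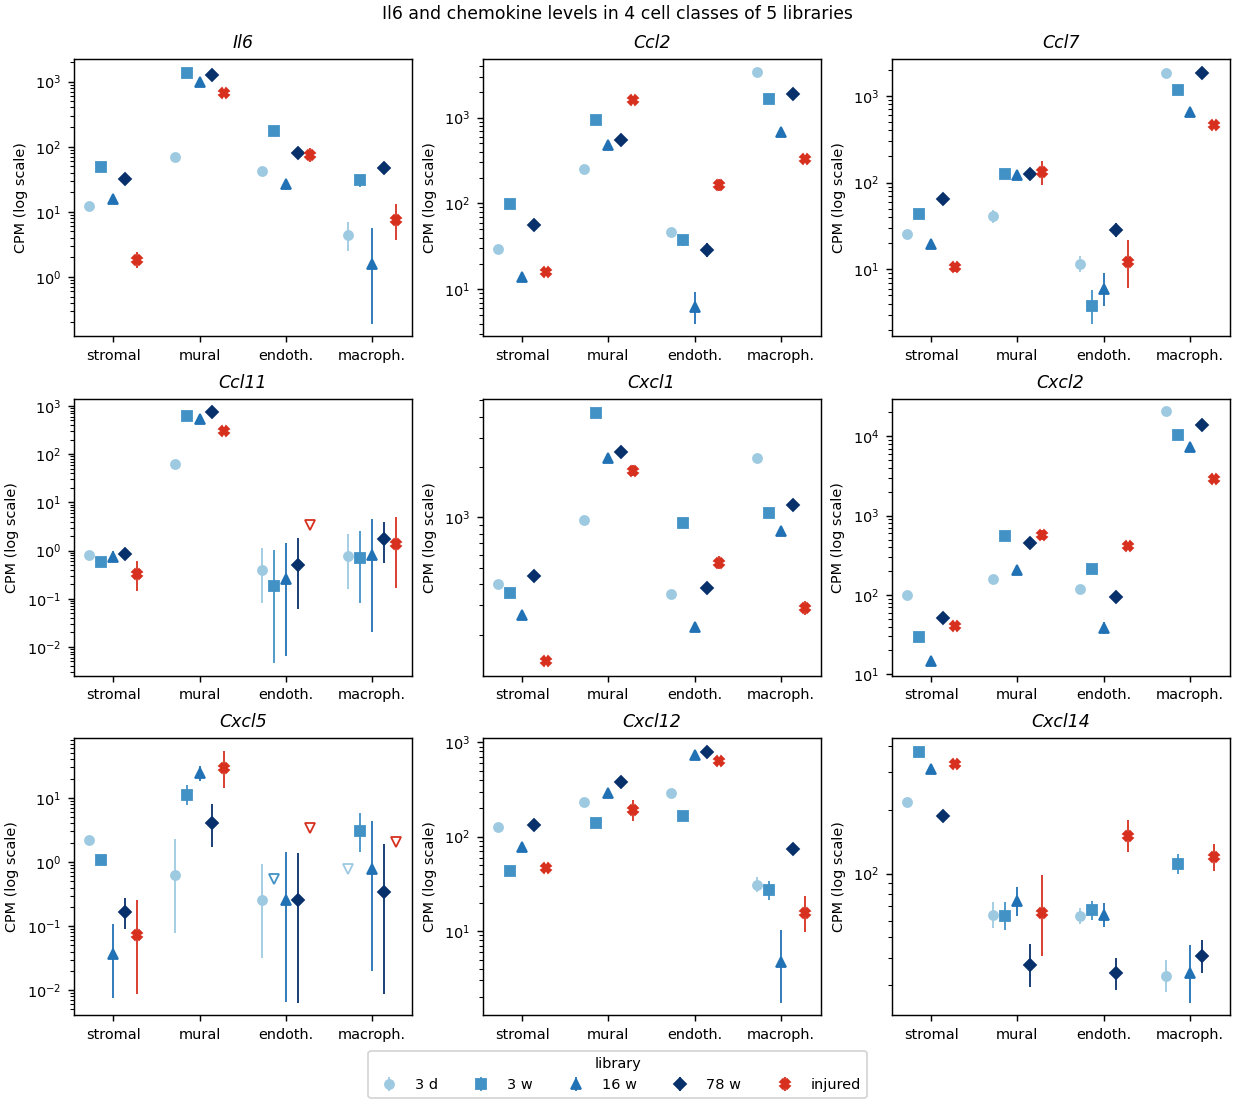
Level of each gene in CPM (log axis) in stromal, mural, endothelial and macrophage cells, 1 symbol per library, with exact Poisson 95% intervals. Open triangles mark 0 UMIs, drawn at the level of 3 UMIs. Il6 reached 1375 CPM in mural cells at 3 w and 1.83 CPM in stromal cells of the injured library.

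The share of cells with an Il6 UMI followed the same order once every cell was thinned to 1000 UMIs. In mural cells it was 4.91% at 3 d, 49.8% at 3 w, 24.3% at 16 w, 32.2% at 78 w and 28.8% after injury. In stromal cells it was 0.658% at 3 d, 3.20% at 3 w, 1.32% at 16 w, 2.16% at 78 w and 0.169% after injury, and in endothelial cells 2.52 to 10.6%. Erythroid cells, which should lack the gene, had at most 0.334%, found at 3 d, where 299 such cells were deep enough (exact binomial interval 0.00847 to 1.85), with a median of 4848 UMIs before thinning against 8427 in stromal cells. That interval covered the 3 d stromal share, 0.658% (exact binomial interval 0.516 to 0.827), and the other libraries had 1 to 41 such cells, too few to set a background, so this measure does not tell the stromal shares from background. Thinning left out 323 of 6826 stromal cells of the injured library and 60 of 11151 at 3 d. Unthinned, the stromal shares were 3.13% at 3 d, 10.1% at 3 w, 5.42% at 16 w, 7.90% at 78 w and 0.601% after injury. Stromal Il6 came from few cells: the 1% of stromal cells with the most Il6 UMIs held 46.7 to 74.9% of them in the normal libraries, against 8.0 to 11.2% in mural cells at 3 w to 78 w and 30.6% in mural cells at 3 d.

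Injured stroma held 51 Il6 UMIs among 6826 cells, or 1.83 CPM (1.37 to 2.41), against 12.5 to 49.2 CPM in the normal libraries. It lay 6.80-fold below the lowest normal library (counting interval 5.14 to 9.18), which was 3 d, and no normal library overlapped it. This is the value that chose the gene. The carried-over level in the same cells was 1.41 CPM, or 76.8% of the measured one, mainly from mural cells. In the stroma taken as a whole, what remained could therefore not be told from background. In the normal libraries the carried-over part was 1.83 to 6.76% of the stromal level. Of 9334 genes compared in stroma, 5, Il6 included, had a ratio to their lowest normal library as low as that of Il6. As that ratio chose the set, its rank is no measure of how rare it is.

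Within the stroma, Il6 belonged mainly to 1 cluster. Cluster 3, led by Pi16, Clec3b and Sfrp2, genes of the adventitial type of fibroblast, held 24.9 CPM at 3 d, 379.8 at 3 w, 90.0 at 16 w, 174 at 78 w and 4.83 after injury. Cluster 2, led by Coch, Kera and Tnmd, held 2.44 CPM at 3 d, 40.3 at 3 w, 21.2 at 16 w, 34.4 at 78 w and 1.55 after injury. In cluster 1, led by Cytl1, Ibsp, Cilp2 and Chad, it was 1.46 CPM at 3 d, 2.66 at 3 w, 4.55 at 16 w, 6.80 at 78 w and 1.34 after injury. The order of the clusters was 3, 2, 1 in all 5 libraries, and the counting intervals of clusters 1 and 2 overlapped at 3 d and in the injured library. Injury against the lowest normal library gave a 5.17-fold lower level in cluster 3, 1.57-fold in cluster 2 and 1.09-fold in cluster 1, from 17, 13 and 21 UMIs, with 3 d as the lowest normal library each time. A 2-fold fall from the 3 d levels of clusters 1 and 2 would have ended under the carried-over level of 1.41 CPM, so it could not have been seen there. Injured cluster 3, at 4.83 CPM (2.81 to 7.73), lay above that level, which was computed for the stroma as a whole and not by cluster. Against the discs of 3 w to 78 w, cluster 2 was also far lower after injury. Cluster 3 made up 13.2% of injured stromal cells against 9.72 to 12.5% at 3 w to 78 w and 33.3% at 3 d. Cluster 8, of cycling cells, held 7.52% of stromal cells at 3 d and at most 0.601% elsewhere, and its 3 d level of Il6 was 20.4 CPM.

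**Figure D2:**
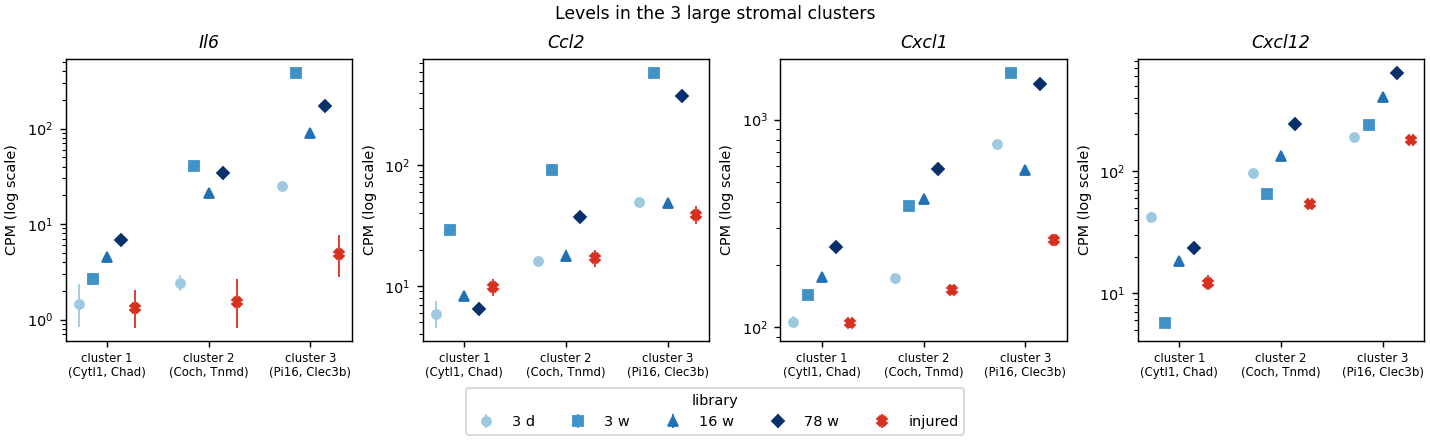
Level of Il6, Ccl2, Cxcl1 and Cxcl12 in CPM (log axis) in the 3 large stromal clusters, 1 symbol per library, with exact Poisson 95% intervals. In cluster 3 Il6 ran from 24.9 CPM at 3 d to 379.8 at 3 w and stood at 4.83 after injury.

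Among the CC chemokines, Ccl2 was shared by macrophages and mural cells. Macrophages held 3362 CPM at 3 d, 1628 at 3 w, 675 at 16 w, 1886 at 78 w and 331 after injury. Mural cells held 250.4 CPM at 3 d, 930.5 at 3 w, 476 at 16 w, 554 at 78 w and 1622 after injury. The 2 classes ran opposite ways after injury: the injured library was the lowest of the 5 in macrophages and the highest in mural cells, and only there did the mural level exceed the macrophage level. In endothelial cells Ccl2 was 47.0 CPM at 3 d, 37.3 at 3 w, 6.23 at 16 w, 28.9 at 78 w and 164 after injury, where the carried-over part was 33.5 to 86.4% of the normal levels and 5.78% of the injured one. That injured endothelial level came from few cells, since 4 of 378 cells held 74.1% of its 147 UMIs. Stromal cells held 29.5 CPM at 3 d, 99.9 at 3 w, 13.9 at 16 w, 56.7 at 78 w and 16.0 after injury, the injured value lying near the low end of the normal range.

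Ccl7, the close relative of Ccl2, was a macrophage gene, at 1841 CPM at 3 d, 1153 at 3 w, 645 at 16 w, 1847 at 78 w and 466 after injury. Its mural level was 40.8 CPM at 3 d, 125 at 3 w, 123 at 16 w, 124 at 78 w and 131 after injury, with little spread from 3 w on, the injured library included. Few cells carried these levels: 1 of 117 injured mural cells held 47.7% of the 44 Ccl7 UMIs, and 3 of 276 held 47.4% at 78 w. Stromal Ccl7 was 25.4 CPM at 3 d, 43.1 at 3 w, 19.7 at 16 w, 64.8 at 78 w and 10.6 after injury, lowest after injury, 1.85-fold below the lowest normal library (counting interval 1.64 to 2.11). Endothelial Ccl7 (3.82 to 28.6 CPM) exceeded its carried-over level in 1 of 5 libraries and was read as background in the others.

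Ccl11 was the most mural of the 9 genes. Mural cells held 62.3 CPM at 3 d, 606 at 3 w, 531 at 16 w, 737 at 78 w and 303 after injury. The other classes stayed at 1.70 CPM or less, so their ranges over the 5 libraries did not overlap the mural one. The mural share of all Ccl11 UMIs was 68.2% at 3 d, 96.2% at 3 w, 94.7% at 16 w, 94.5% at 78 w and 90.3% after injury, although mural cells were at most 2.93% of the cells of a library. The carried-over level, nearly all of it from mural cells, amounted to 24.9 to 133% of stromal Ccl11. Stromal Ccl11 exceeded it in 4 of 5 libraries, all but the injured one.

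Cxcl1, a neutrophil attractant, was present in all 4 classes above the carried-over level in every library. Mural cells were highest from 3 w on, with 963 CPM at 3 d, 4231 at 3 w, 2274 at 16 w, 2463 at 78 w and 1904 after injury. Macrophages held 2269.6 CPM at 3 d, 1067 at 3 w, 835 at 16 w, 1181 at 78 w and 289.5 after injury, and the 3 d value was the only one above the mural level of its library. The endothelial level was 350.2 CPM at 3 d, 928 at 3 w, 221 at 16 w, 378 at 78 w and 537 after injury. It peaked at 3 w, as in mural cells. Stromal cells held 399 CPM at 3 d, 354 at 3 w, 260.1 at 16 w, 447 at 78 w and 139 after injury, with the injured library 1.87-fold below the lowest normal library (counting interval 1.80 to 1.93). In stromal cluster 3 the normal levels of Cxcl1 were 571 to 1675 CPM and the injured one 263 CPM, while in cluster 1 they were 107 to 243 and 105 CPM.

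Cxcl2, which shares its receptor with Cxcl1, was by contrast a macrophage gene, at 20583 CPM at 3 d, 10359 at 3 w, 7284 at 16 w, 13953 at 78 w and 2930.4 after injury. The share of macrophages with a Cxcl2 UMI, thinned to 1000 UMIs, was 71.0% at 3 d, 80.3% at 3 w, 62.9% at 16 w, 71.9% at 78 w and 44.3% after injury. Mural Cxcl2 was 161 CPM at 3 d, 562 at 3 w, 204 at 16 w, 452 at 78 w and 565 after injury. In endothelial cells it was 119 CPM at 3 d, 212 at 3 w, 38.4 at 16 w, 94.2 at 78 w and 413 after injury, and in both classes the injured library was the highest of the 5, in mural cells by little over 3 w. In stromal cells it was 14.6 to 98.9 CPM, of which 12.4 to 44.4% was matched by the carried-over level. That part was 2.90 to 48.7% in mural and 6.22 to 59.1% in endothelial cells, highest at 3 d in both. The measured Cxcl2 level exceeded it in every library of these classes.

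Cxcl5 was scarce. Its mural level was 0.632 CPM at 3 d, 11.2 at 3 w, 24.3 at 16 w, 4.03 at 78 w and 29.7 after injury, from 2 to 51 UMIs. Very few mural cells held them, 2 at 3 d, 5 at 3 w, 2 at 16 w, 3 at 78 w and 7 after injury. Its stromal level was 0.0372 to 2.20 CPM, highest at 3 d. Stromal Cxcl5 at 3 d and 3 w sat in cluster 3, at 5.35 and 9.83 CPM, and at 0 and 0.0135 CPM in cluster 1. Endothelial Cxcl5 did not exceed the carried-over level in any library, with 4 UMIs over all 5. Macrophages had 11 UMIs over all 5.

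Of the homeostatic pair, Cxcl12 was highest in endothelial cells, with 289.7 CPM at 3 d, 167 at 3 w, 741 at 16 w, 785 at 78 w and 636 after injury. Mural cells followed in each library, at 231 CPM at 3 d, 141 at 3 w, 292 at 16 w, 375 at 78 w and 190.2 after injury. The stromal level, 125 CPM at 3 d, 43.1 at 3 w, 76.9 at 16 w, 133 at 78 w and 46.1 after injury, was below the mural range in every library. Among stromal clusters Cxcl12 also followed the order 3, 2, 1 in all 5 libraries. Cluster 3 held 190.1 CPM at 3 d, 238 at 3 w, 404 at 16 w, 636 at 78 w and 180.0 after injury, and the injured library was the lowest of the 5 in clusters 2 and 3, in cluster 3 with an interval (166 to 195) that overlapped that of 3 d. Macrophage Cxcl12 (4.75 to 74.0 CPM) exceeded the carried-over level in 2 of 5 libraries.

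Cxcl14 was the stromal chemokine, at 217 CPM at 3 d, 376 at 3 w, 310.3 at 16 w, 186 at 78 w and 329 after injury. Its cluster order was the reverse of that of Il6 in most libraries. Cluster 3 held 93.0 CPM at 3 d, 227 at 3 w, 169.6 at 16 w, 213 at 78 w and 93.4 after injury. Cluster 1 held 384 CPM at 3 d, 397 at 3 w, 329.7 at 16 w, 165 at 78 w and 358 after injury. At 78 w cluster 3 was above cluster 1, and in the other 4 libraries below it. Cluster 2 held 294 CPM at 3 d, 380 at 3 w, 307 at 16 w, 262 at 78 w and 379 after injury. It was above cluster 1 at 78 w and, with overlapping intervals, after injury. In the non-stromal classes Cxcl14 was 33.1 to 151 CPM. The carried-over level, mainly from stromal cells, reached 56.1 to 161% of it, so most of these values were read as background. It exceeded that level in endothelial cells at 3 d and after injury, in macrophages at 3 w and 78 w and in mural cells at 16 w. The injured endothelial level was 151 CPM (126 to 178), against 90.6 CPM carried over.

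Because stromal cells outnumber the rest, they can hold most transcripts of a gene whose level per cell is low. Of all Il6 UMIs of a library, stromal cells held 68.6% at 3 d, 52.1% at 3 w, 35.8% at 16 w, 49.2% at 78 w and 14.6% after injury. Mural cells held 11.7% at 3 d, 36.6% at 3 w, 58.2% at 16 w, 42.1% at 78 w and 63.1% after injury. Stromal cells were thus the larger source at 3 d, 3 w and 78 w, and mural cells at 16 w and after injury. The injured shares depend on the low stromal level that chose the set. For Cxcl1 the stromal share was 65.7 to 78.5% and for Cxcl14 95.1 to 97.9% over the 5 libraries. For Cxcl12 it was 63.0 to 79.3%, although endothelial cells had the higher level. Macrophages held 70.3 to 86.7% of Cxcl2 UMIs, lowest after injury, where they were 6.46% of the cells against 1.28 to 2.92% in the normal libraries. Ccl2 was divided, with 24.9 to 74.9% in macrophages, 17.5 to 59.4% in stromal and 4.53 to 33.3% in mural cells.

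**Figure D3:**
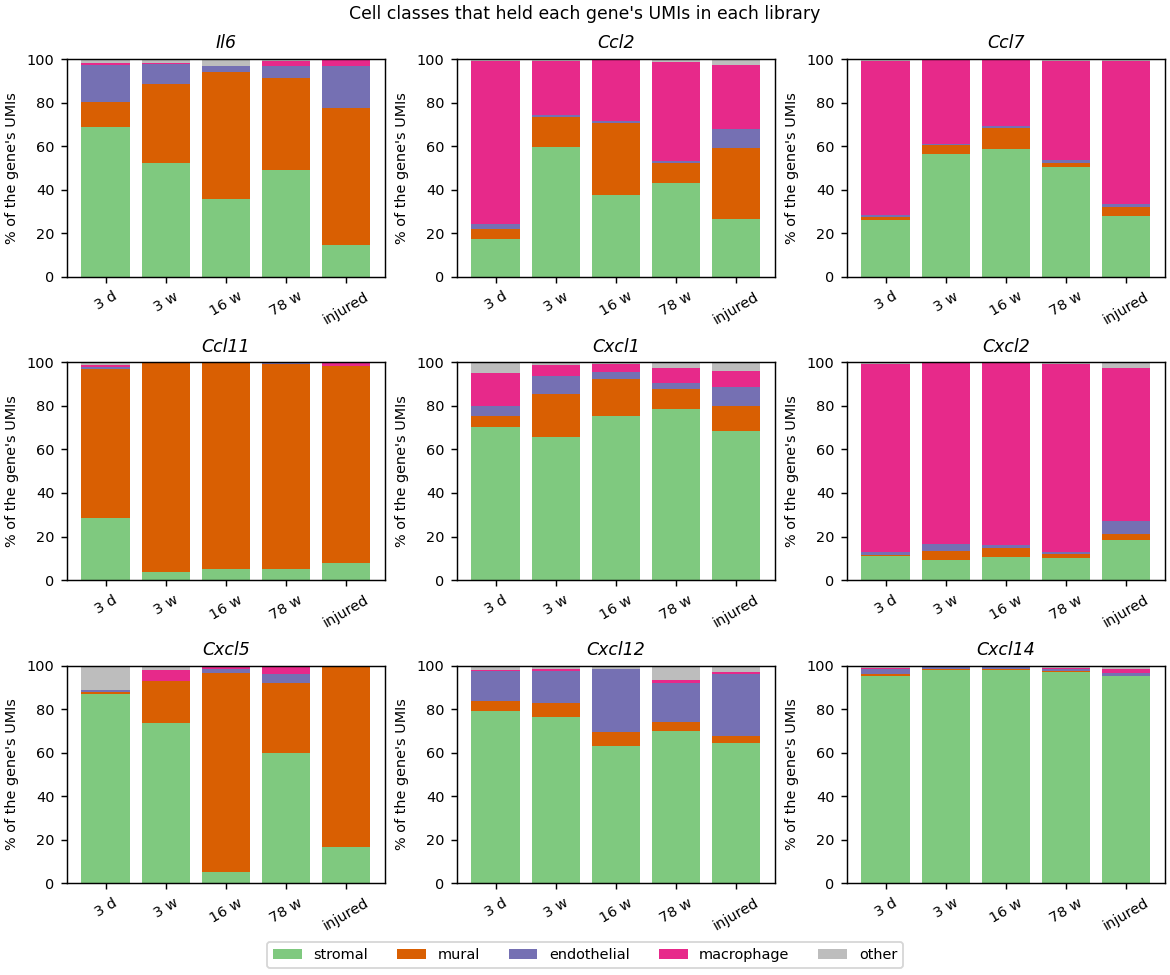
Percentage of each gene's UMIs held by stromal, mural, endothelial, macrophage and all other cells (stacked bars, 0 to 100%) in each library. The stromal share of Il6 was 68.6% at 3 d and 14.6% in the injured library.

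Cells with an Il6 UMI held Cxcl1 and Ccl2 more often than cells without one in stroma and mural cells of the normal libraries. Among stromal cells of the 3 w library thinned to 1000 UMIs, Cxcl1 was found in 56.7% (50.4 to 62.9) of the 254 cells with an Il6 UMI and in 14.0% (13.2 to 14.8) of those without (exact binomial intervals, counting error only). Ccl2 was found in 19.3% (14.6 to 24.7) and 3.50% (3.1 to 3.94) of the same cells, and Cxcl14 in 16.5% (12.2 to 21.7) and 23.9% (22.9 to 24.8). Over the normal libraries the stromal share with Cxcl1 was 40.2 to 71.2% beside Il6 and 10.7 to 15.9% without it, and their intervals did not overlap in any of the 4. The injured stroma had 11 cells with an Il6 UMI after thinning, too few to compare. In mural cells at 16 w, Cxcl1 was found in 72.4% (59.1 to 83.3) of cells with Il6 and 20.4% (14.8 to 27.1) without, Ccl2 in 32.8% (21.0 to 46.3) and 2.76% (0.903 to 6.33), and Ccl11 in 41.4% (28.6 to 55.1) and 7.73% (4.29 to 12.6). Inside stromal cluster 3 at 3 w, 66.7% of cells with Il6 (59.1 to 73.6) and 38.8% of those without (35.1 to 42.5) had a Cxcl1 UMI, and the intervals did not overlap in any of the 4 normal libraries. Ccl2 did not follow in every library there, since at 16 w 2.08% of cells with Il6 (0.0527 to 11.1) and 2.71% of those without (1.64 to 4.20) had a Ccl2 UMI. Cells of 1 library share its preparation, so these shares describe the libraries and not the conditions.

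**Figure D4:**
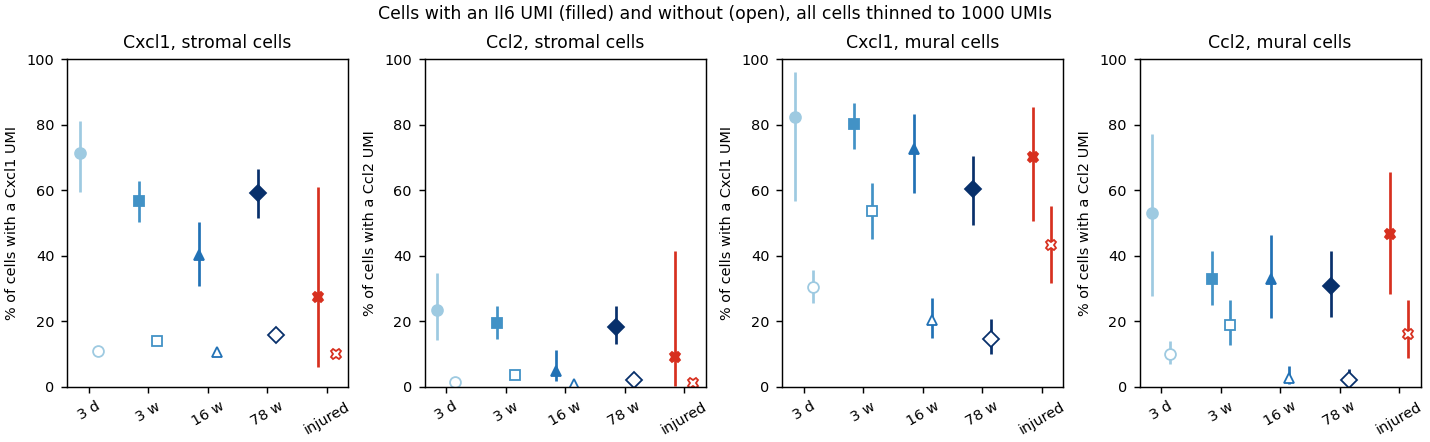
Percentage of cells with a Cxcl1 or Ccl2 UMI (0 to 100%) among stromal and mural cells with an Il6 UMI (filled) and without (open) in each library, all cells thinned to 1000 UMIs, with exact binomial 95% intervals. Filled symbols lay above open ones in every panel and library, for example 72.4% against 20.4% for Cxcl1 in mural cells at 16 w. In injured stroma too few cells had an Il6 UMI to compare.

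Each class was then divided by a gene outside the set. Mural cells were split at the middle of their Myh11 ranking, Myh11 being a contractile smooth muscle gene. Ccl2 in the cells lower in Myh11 was 296 CPM at 3 d, 1263 at 3 w, 833 at 16 w, 891 at 78 w and 2124 after injury. In the cells higher in Myh11 it was 213 CPM at 3 d, 509.9 at 3 w, 144 at 16 w, 209 at 78 w and 1211 after injury. The cells lower in Myh11 thus held more Ccl2 in all 5 libraries. The same direction held for Il6 in the 4 normal libraries. After injury Il6 was higher in the cells higher in Myh11, with overlapping counting intervals (582 to 829 against 489 to 744 CPM). Ccl11 followed the direction of Ccl2 at 16 w and 78 w. It went the other way at 3 w, with 1002 CPM in the cells higher in Myh11 and 293 in those lower. At 3 d and after injury it also went the other way, but with overlapping intervals. Endothelial cells with a Selp UMI, which marks venules, held more Il6 than the rest in every library. They were also deeper in every library, at a median of 9717 against 4780.5 UMIs at 3 d and 2212.5 against 1765.5 after injury. This split was not thinned, so shallow cells without a Selp UMI may still be venular. Il6 with Selp was 117 CPM at 3 d, 249 at 3 w, 40.3 at 16 w, 150.2 at 78 w and 186 after injury. Il6 without Selp was 31.0 CPM at 3 d, 138 at 3 w, 17.5 at 16 w, 22.9 at 78 w and 40.9 after injury. Cxcl12 ran the other way in all 5. Its level with Selp was 88.0 CPM at 3 d, 38.7 at 3 w, 95.7 at 16 w, 68.9 at 78 w and 105 after injury. Without Selp it was 318 CPM at 3 d, 223 at 3 w, 1159 at 16 w, 1351 at 78 w and 798 after injury. In the macrophage class, Ccl2 was higher in cells with complement C1q transcripts. In cells with a UMI of C1qa, C1qb or C1qc it was 3577 CPM at 3 d, 1666 at 3 w, 728 at 16 w, 1989 at 78 w and 345 after injury. Cells without one held 254 CPM at 3 d, 58.3 at 3 w, 50.6 at 16 w, 6.55 at 78 w and 43.7 after injury, and each library had 5 to 60 such cells. At 3 d they had a median of 2230 UMIs against 11953.5 in cells with one. Whether they were macrophages or other leukocytes was not tested.

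The injured library was set against the range of the 4 normal libraries, and a gene was called when it lay at least 2-fold beyond it and averaged at least 5 CPM with at least 10 UMIs expected in the injured class. In stroma 7 of the 9 genes could be compared and 1, Il6, was called below, where 1.26% of all 9334 genes were called below. None was called above, against a background of 0.879%. As Il6 in this comparison chose the set, nothing is read from that count. In macrophages 3 of 7 genes were called below, against 3.23% of 8639 genes, and none above, against 1.17%. They were Ccl2, 2.04-fold below the lowest normal library (counting interval 1.82 to 2.29), Cxcl1, 2.88-fold below the lowest normal library (counting interval 2.58 to 3.23), and Cxcl2, 2.49-fold below the lowest normal library (counting interval 2.40 to 2.58). Macrophage Ccl7 also lay under its range, 1.38-fold below the lowest normal library (counting interval 1.25 to 1.53), without reaching the fold. Endothelial cells had 2 of 7 genes called above, against 0.8% of 7623 genes, and none below, against 3.71%. Ccl2 lay 3.50-fold above the highest normal library (counting interval 2.87 to 4.25) and Cxcl14 2.25-fold above the highest normal library (counting interval 1.83 to 2.75). Cxcl2 was 1.95-fold above the highest normal library (counting interval 1.73 to 2.20). The 4 of 378 injured endothelial cells highest in each gene held 44.3% of the Cxcl2 UMIs and 38.5% of the Cxcl14 UMIs. In mural cells none of 8 was called, against 3.34% of 4344 genes below and 1.24% above, the nearest being Ccl2, 1.74-fold above the highest normal library (counting interval 1.59 to 1.91).

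Several values moved with these results. Macrophage marker RNA in injured endothelial cells stood at 1.57% of its macrophage level, against 0.0388 to 0.220% in the normal libraries, and the carried-over level reached 5.78% of endothelial Ccl2 and 13.7% of endothelial Cxcl2 there. Summed stromal markers in macrophages were 19668 CPM after injury and 4632 to 12348 in the normal libraries. Subtracting free RNA left the injured macrophage level of Ccl2 at 0.630 times and that of Cxcl2 at 0.535 times the lowest normal library, no longer past the fold, and that of Cxcl1 at 0.383 times. Endothelial Ccl2 and Cxcl14 missed the 2-fold limit when the libraries were clustered without integration, at 1.94 and 1.85 times the highest normal library. Ccl2 also missed it without the 1% of cells highest in it, at 1.86 times, and Cxcl14 as a mean of per-cell CPM, at 1.69 times. With free RNA subtracted they rose to 19.9 and 6.35 times. In the normal libraries the carried-over level was 33.5 to 86.4% of endothelial Ccl2 and 84.8 to 121% of endothelial Cxcl14. As much of these normal levels was matched by carried-over RNA, the larger ratios are not read as a larger rise. Without the 3 d library, which sets the low end of the mural range, injured mural Il6 was 0.668, Ccl11 0.571 and Cxcl1 0.838 times the lowest normal library, below the range of the older discs. The thinned share of mural cells with an Il6 UMI, in contrast, lay inside the range of the older discs after injury.

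**Figure D5:**
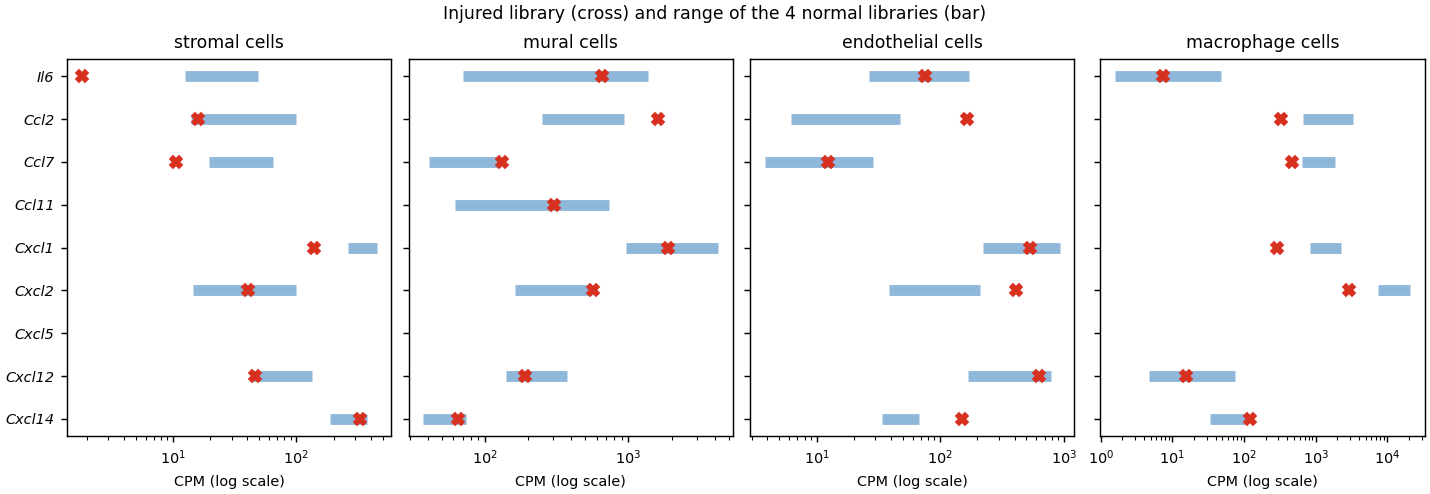
Range of the 4 normal libraries (bar) and the injured library (cross) in CPM (log axis) for each gene with enough counts, in 4 cell classes. Il6 in injured stroma (1.83 CPM) lay outside the normal bar (12.5 to 49.2 CPM), while injured mural Il6 (657 CPM) lay inside it (70.2 to 1375 CPM).

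Across age, the mural genes differed most clearly between the newborn and the 3 w disc. Mural Il6 was 19.6-fold higher (counting interval 17.1 to 22.5), mural Ccl11 9.74-fold higher (counting interval 8.40 to 11.3) and mural Cxcl1 4.39-fold higher (counting interval 4.22 to 4.57) at 3 w. Over the same step stromal Il6 was 3.94-fold higher (counting interval 3.71 to 4.19) and endothelial Il6 4.13-fold higher (counting interval 3.63 to 4.70). Macrophage chemokines were lower at 3 w than at 3 d, where the neutrophil markers summed to 901 CPM in this class against 9.64 at 3 w, a difference whose part was not tested: Cxcl2 was 1.99-fold lower (counting interval 1.96 to 2.01) and Ccl2 2.07-fold lower (counting interval 2.00 to 2.14). From 3 w to 16 w Il6 was lower in stromal, mural and endothelial cells, 3.12-fold lower (counting interval 2.94 to 3.32) in stroma, 1.40-fold lower (counting interval 1.33 to 1.48) in mural and 6.5-fold lower (counting interval 5.29 to 8.05) in endothelial cells, and at 78 w it was above the 16 w level in all of them. From end to end, 78 w against 3 d, mural Il6 was 17.8-fold higher (counting interval 15.5 to 20.5), endothelial Cxcl12 2.71-fold higher (counting interval 2.57 to 2.86) and macrophage Cxcl2 1.48-fold lower (counting interval 1.46 to 1.49). Stromal Cxcl14 was 1.17-fold lower (counting interval 1.14 to 1.19) at 78 w than at 3 d, and 1.67-fold lower (counting interval 1.64 to 1.70) than at 16 w. At 3 d the mix of cells differed from that of older discs, with cluster 1 at 13.1% of stromal cells against 61.8 to 70.3%, and sex differed too, so age cannot be told apart from these.

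The genes that receive and pass on IL-6 were present in all classes. The receptor Il6ra was highest in macrophages, at 47.7 CPM at 3 d, 81.6 at 3 w, 135 at 16 w, 83.8 at 78 w and 54.0 after injury, and stood in stroma at 3.02 CPM at 3 d, 31.9 at 3 w, 32.4 at 16 w, 32.7 at 78 w and 7.30 after injury. Il6st, the shared signal chain, was highest in endothelial cells, at 99.1 CPM at 3 d, 478 at 3 w, 813 at 16 w, 692 at 78 w and 235 after injury. Socs3, induced by STAT3, was 93.8 CPM at 3 d, 566 at 3 w, 646 at 16 w, 353 at 78 w and 144 after injury in stroma. Mural Socs3 was 141 CPM at 3 d, 492 at 3 w, 856 at 16 w, 885 at 78 w and 95.1 after injury. In the injured library it was under the normal range in mural and endothelial cells and inside it in stroma, where 3 d was lower still. Of this list of 15 genes, stroma had 0 called below and 0 above of 12 compared (over all genes 1.26% and 0.879%), with a median of 0.532 times the normal median against 0.840 over all genes compared. Mural, endothelial and macrophage cells had none past the fold, where over all genes 3.34%, 3.71% and 3.23% were below and 1.24%, 0.8% and 1.17% above. The list's medians there were 0.443, 0.594 and 0.663 against 0.889, 0.829 and 0.883 over all genes. The other stromal members of highest level were Il11ra1 (185 to 353 CPM), Jak1 (90.8 to 219 CPM) and Stat3 (94.6 to 209.9 CPM), Jak1 being lowest after injury.

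Among 27 other chemokines, stroma had 1 called below and 0 above of 7 compared (over all genes 1.26% and 0.879%), mural cells 0 called below and 0 above of 3 compared (over all genes 3.34% and 1.24%) and endothelial cells 0 called below and 0 above of 5 compared (over all genes 3.71% and 0.8%). The stromal gene was Cxcl10, a target of interferon, at 66.4 CPM at 3 d, 16.3 at 3 w, 23.9 at 16 w, 34.5 at 78 w and 4.49 after injury. Macrophages had 3 called below and 1 above of 15 compared (over all genes 3.23% and 1.17%), with a median of 0.381 times the normal median against 0.883 over all genes. Ccl3 was 1289 CPM at 3 d, 1299.6 at 3 w, 1125 at 16 w, 1929.6 at 78 w and 142 after injury. Its neighbour Ccl4 was 5052 CPM at 3 d, 462 at 3 w, 517 at 16 w, 1853 at 78 w and 146 after injury. Macrophage Cxcl10 was 2719 CPM at 3 d, 76.5 at 3 w, 104 at 16 w, 108 at 78 w and 4.72 after injury. All 3 were lowest after injury, and Ccl4 and Cxcl10 were highest at 3 d. The 1 above was Ccl21a, a chemokine of lymphatic endothelium, at 0.513 CPM at 3 d, 0 at 3 w, 0.791 at 16 w, 0 at 78 w and 33.7 after injury. No carried-over level was computed for the listed genes, so this macrophage value was not set against background. Pf4, the highest of the list in macrophages, was 5358 CPM at 3 d, 2209.9 at 3 w, 1493 at 16 w, 2917 at 78 w and 1879.6 after injury and stayed inside its range. In stroma the next highest were Ccl19, Ccl27a and Cxcl16, none above 23.8 CPM in any library. Of 17 chemokine receptors, stroma had 0 called below and 0 above of 3 compared (over all genes 1.26% and 0.879%), mural cells 0 called below and 0 above of 2 compared (over all genes 3.34% and 1.24%), endothelial cells 0 called below and 1 above of 3 compared (over all genes 3.71% and 0.8%) and macrophages 1 called below and 0 above of 8 compared (over all genes 3.23% and 1.17%). The endothelial gene above was Cxcr4, the receptor of Cxcl12, at 19.7 CPM at 3 d, 119 at 3 w, 10.4 at 16 w, 16.1 at 78 w and 322 after injury. The macrophage gene below was Ccrl2, a binder of chemerin, at 449 CPM at 3 d, 131 at 3 w, 154 at 16 w, 142 at 78 w and 22.9 after injury. Stroma carried Ackr3, which scavenges Cxcl12, at 65.7 CPM at 3 d, 373 at 3 w, 382 at 16 w, 466 at 78 w and 185 after injury. The other receptors of highest stromal level, Ackr2, Ackr4 and Ackr1, lay between 3.27 and 68.1 CPM. Cxcr2, through which Cxcl1 and Cxcl2 act, was at or below 3.59 CPM in every class and library, and Ccr2 was 12.7 to 62.1 CPM in macrophages.

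NF-kappaB and cytokine response genes, a list of 34 in the files, showed 0 called below and 0 above of 27 compared (over all genes 1.26% and 0.879%) in stroma, 0 called below and 0 above of 20 compared (over all genes 3.34% and 1.24%) in mural cells, 0 called below and 0 above of 27 compared (over all genes 3.71% and 0.8%) in endothelial cells and 8 called below and 0 above of 31 compared (over all genes 3.23% and 1.17%) in macrophages. The 8 macrophage genes were Nfkbia, Tnfaip3 and Zfp36, which restrain NF-kappaB or cytokine transcripts, Nfkbiz, a nuclear co-activator of genes such as Il6, and Icam1, Ptgs2, Birc3 and Il1a. Nfkbia was 2461 CPM at 3 d, 2504 at 3 w, 1847 at 16 w, 2300.1 at 78 w and 880.1 after injury. Ptgs2, the inducible cyclooxygenase, was 161 CPM at 3 d, 104 at 3 w, 131 at 16 w, 230.4 at 78 w and 20.2 after injury. Of the 31 measured macrophage genes 18 lay under the normal range and 0 above it, with a median of 0.534 times the normal median, against 0.883 over all genes. In stroma the median was 0.543 against 0.840 over all genes, and the members of highest level were Nfkbia (535 to 2104 CPM), Ier3, Tnfaip6 and Zfp36, of which Ier3 alone was lowest after injury. Immediate early and stress genes, which respond to digestion, showed 2 called below and 0 above of 22 compared (over all genes 1.26% and 0.879%) in stroma, 0 called below and 1 above of 20 compared (over all genes 3.34% and 1.24%) in mural, 2 called below and 1 above of 22 compared (over all genes 3.71% and 0.8%) in endothelial cells and 3 called below and 0 above of 22 compared (over all genes 3.23% and 1.17%) in macrophages. Those called outside the stroma were Klf4 above in mural cells, Ier2 and Egr2 below and Hspa1b above in endothelial cells, and Junb, Gadd45b and Btg2 below in macrophages. Stromal Gadd45b, a stress gene, was 576 CPM at 3 d, 897 at 3 w, 1283 at 16 w, 948 at 78 w and 165 after injury. Stromal Btg2, which restrains cell division, was 109 CPM at 3 d, 375 at 3 w, 232 at 16 w, 159 at 78 w and 41.2 after injury. Both lay past the 2-fold limit below all 4 normal libraries. The AP-1 gene Fos was 1284 CPM at 3 d, 2249 at 3 w, 3766 at 16 w, 1896 at 78 w and 1499 after injury in stroma, inside the normal range after injury, as was Atf3, at 269.7 CPM at 3 d, 2104 at 3 w, 1683 at 16 w, 1258 at 78 w and 1300.2 after injury. Jund and Klf4, the other stromal genes of highest level, were above it. The part of the digestion in any of these levels was not tested.

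Over the 20 points of 4 classes by 5 libraries, the genes whose log2(CPM + 5) was most like that of each chemokine were sought among 10183 genes. Classes of 1 library share its depth and free RNA, so Pearson's r is a description here. Il6 was most like Adamts4 (r = 0.94), Tbx3 (0.91) and Akap12 (0.90). Adamts4, a protease that cleaves aggrecan, was 60.4 to 821 CPM in mural cells. Ccl2 was most like Efhd2 (r = 0.88), Adap2 (0.88) and Dock10 (0.88), and Ccl7 most like Apobr (r = 0.94), Taok3 (0.94) and Ctsc (0.93). Ccl11 was most like Jph2 (r = 0.99), Casq2 (0.98) and Nrip2 (0.98), Jph2 and Casq2 being calcium-handling genes of muscle. For Cxcl1 the closest were Opa3 (r = 0.89), Dot1l (0.89) and Hilpda (0.87), and for Cxcl2 Ctsc (r = 0.96), Tpd52 (0.95) and Rasgef1b (0.94). Cxcl5 was closest to Rbm24 (r = 0.90), Pip5k1b (0.90) and Irgq (0.87), Cxcl12 to Acyp2 (r = 0.89), Spef1 (0.88) and Ptprg (0.88), and Cxcl14 to Serpinf1 (r = 0.93), Fez1 (0.91) and Bgn (0.89). Within the set, Il6 was most like Ccl11 (r = 0.85), then Cxcl5 (0.73) and Cxcl1 (0.68), and least like Cxcl14 (-0.30).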

How the data were processed

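The authors made 10x Genomics 3′ v2 libraries and counted reads with Cell Ranger against mm10, given as version 3.1 in the labels and as 4.0.0 in the file headers. The deposited values are raw UMI counts per gene and cell barcode, unnormalized, and the lowest deposited barcode held 500 UMIs. Totals were 31585993 UMIs in the injured library and 88998394 to 125427849 in the normal ones, and since each library was 1 sample, intervals cover counting error only and no p-value was computed.

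Cells needed over 200 UMIs, of which no more than 30% mitochondrial (51688 passed), and were integrated and clustered with Seurat 5.3.0 (2000 variable features per library, 30 dimensions, resolution 0.2) in R 4.3.3, with the 9 genes and 117 listed genes left out of the features. Clusters were named from marker genes. Doublets were kept, because Scrublet's automatic threshold called 0 to 2 cells per library. Members, lists and tests were chosen with earlier results of these data known. Each class's UMIs were summed per library and scaled to CPM in Python 3.11.15 (scipy 1.17.1), with 95% exact Poisson intervals for levels, exact conditional intervals for ratios and Clopper-Pearson intervals for shares. Shares of cells were taken after thinning to 1000 UMIs, and a count of 0 was read as up to 3 counts. Scripts were tested on simulated counts.

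Carried-over levels used 3 to 4 markers of each source class. Named were the 9 genes in every class and library and, from each list, the up to 4 of highest mean CPM in the class described and those past the 2-fold limit in stroma. Other listed genes were named after their values were seen. Alternatives were another resolution, no integration, stricter cell filters, doublet removal by score, per-cell means, free RNA subtraction, other scalings, other folds and filters, other cluster weights and other normal ranges.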

Additional observations from a re-analysis of the deposited data

Results flagged for a closer look

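Ccl2 moved in different directions between cell classes when the injured library was set against the normal range. It was 1.74 times the highest normal library in mural cells and 3.50 times in endothelial cells, and 0.490 times the lowest normal library in macrophages. Cxcl2 differed in the same way between endothelial cells, at 1.95 times the highest normal library, and macrophages, at 0.402 times the lowest. All 5 ratios had counting intervals that excluded 1, but with 1 library per condition the difference between the classes was not tested.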

How the results depend on the processing

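No paired analysis was possible because each condition was 1 library, and no group had a second library to leave out. Removing the cells Scrublet calls doublets was not run, since its automatic threshold called 0 to 2 cells per library. Leaving out the highest scores instead, at 0.8% per 1000 cells, and leaving the 3 d library out of the normal range were chosen after seeing the data.

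The ratio of injured stromal Il6, the value that chose the set, to the lowest normal library was 0.147. It became 0.243 as a mean of per-cell CPM, 0.0356 with free RNA subtracted, 0.267 with stromal clusters at equal weight and 0 without the 1% of cells highest in Il6, which by construction removed every injured cell that had any. The 4 gene and class pairs called below became 1 at a 4-fold limit and 3 to 6 under the other alternatives. The 2 called above became 0 without integration or at a 4-fold limit, and 4 as a mean of per-cell CPM, with median-of-ratios scaling or at a 1.5-fold limit. Averaged over the libraries, the Il6 level of mural cells was 39.1 times that of stromal cells. This ratio of means was 43.9 without doublets, 52.5 with free RNA subtracted and 37.4 without the 50 highest genes. It was 74.8 without the 1% of cells highest in Il6 and 16.5 with clusters at equal weight. The 78 w over 3 d ratio of mural Il6, 17.8, was 22.6 without that 1%. The cause of these shifts was not tested. Cxcl1 in macrophages was called in 16 of 17 alternatives, Cxcl2 in 15 and Ccl2 in 13, and endothelial Ccl2 and Cxcl14 in 14 each. These counts include alternatives that could not change the calls, namely those that altered only the stroma. The other limits on the mean CPM could not change them either, as these genes averaged well above them. The 1.5-fold limit and the normal ranges taken from fewer libraries could add calls but could not remove any of these. Macrophage Ccl2 missed the limit with median-of-ratios scaling, at 0.545, and without the 50 highest genes, at 0.532. Depth limits the injured mural class, 117 cells, where genes under 10 expected UMIs were not compared.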

Other observations

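Synovial lining-like cells, 49 to 241 per library, also held Il6. Its level was 19.0 CPM in the 3 d library, 183 in the 3 w, 111 in the 16 w and 12.6 in the 78 w library. The injured library had 0 Il6 UMIs in 163 such cells, which allows up to 4.64 CPM. Few cells carried the counts, the 3 d library having 2 cells with an Il6 UMI, the 3 w library 14, the 16 w library 5 and the 78 w library 25. Cxcl1 stood at 225 to 984 CPM in these cells. Schwann-like cells of the 3 d library, 42 in number, held Cxcl1 at 963 CPM and Cxcl2 at 982 CPM, and their Cxcl5, 89.3 CPM, came from 2 cells.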
